A study of Homo sapiens with 6 samples.

Results

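The integrated stress response and the unfolded protein response were followed through 50 genes in 786-O, a human cell line derived from a clear cell renal carcinoma that lacks functional VHL, after knockdown of METTL3, the catalytic subunit of the enzyme that writes N6-methyladenosine on mRNA. The 50 genes were taken by symbol from the 61860 rows of the deposited count table, and each symbol matched a single row. They fall into 6 groups by role, with 8 transcriptional regulators of the ATF4 branch, 13 effectors of that branch, 3 kinases of the translation factor eIF2, 4 sensors and transcription factors of endoplasmic reticulum (ER) stress, 16 ER chaperones and folding enzymes, and 6 genes of ER-associated degradation. RNA depleted of ribosomal RNA was sequenced from 3 libraries of cells that stably expressed an shRNA against METTL3 and from 3 libraries of cells that stably expressed a control shRNA. The 3 control columns are named for a control shRNA, whereas the other 3 columns carry a number that no label explains and were assigned to the METTL3 shRNA by elimination. The libraries of each group are called A, B and C after the columns. The labels do not say whether the libraries came from separate cultures, or the lines from single clones, and the p-values cover only variation among these libraries, possibly technical.

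As background, both pathways slow translation and change transcription when cells are short of amino acids or accumulate unfolded proteins in the ER. The kinases EIF2AK1 (HRI), EIF2AK3 (PERK) and EIF2AK4 (GCN2) phosphorylate eIF2 and so block its exchange factor eIF2B, which lowers general translation but favours that of ATF4. ATF4 is a transcription factor that induces genes of amino acid synthesis, transport and stress signalling. In the ER, PERK, IRE1 (encoded by ERN1) and ATF6 sense unfolded proteins, IRE1 splices XBP1 mRNA into its active form, and XBP1 and cleaved ATF6 induce chaperones and degradation factors. Phosphorylation, cleavage, XBP1 splicing and translation are not visible in counts per gene, so the values below are transcript levels only.

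The targeted gene was lower in every library assigned to its shRNA. METTL3 stood at 11.3, 9.84 and 11.4 CPM in METTL3 shRNA libraries A, B and C, against 37.2, 38.1 and 37.6 CPM in control libraries A, B and C (log2 fold change −1.80, SE 0.083, adjusted p of edgeR = 1.45e-07), where CPM are counts relative to library size, taken after TMM scaling, which corrects library totals for composition. The gene overlaps TOX4 on the other strand, and the strand setting of the counting is not known here. Total counts ran from 100534896 to 101473388 per METTL3 shRNA library and from 102420127 to 103624456 per control library. The renal transcription factors PAX8 and PAX2 were present at 177 ± 12.1 CPM and 38.5 ± 1.72 CPM in METTL3 shRNA cells and at 142 ± 11.2 CPM and 44.1 ± 2.67 CPM in control cells (SD, n = 3 each). Of 13 markers of blood, endothelial, stromal and other cells, 7, among them PTPRC, PECAM1 and DCN, had at most 5 counts in any library. The summed level of all 13 markers was 169 to 191 CPM in METTL3 shRNA libraries and 131 to 140.0 CPM in control libraries, mostly from CD68, a lysosomal protein that many cell types make, and from MBP. Within it CD68 rose (0.95, SE 0.10), while PDGFRB (−1.21, SE 0.18), LUM (−1.57, SE 0.36) and CD14 (−1.41, SE 0.43) fell, each averaging at most 0.929 CPM in METTL3 shRNA cells and at most 2.15 CPM in control cells. CD3E was at 0 in every library, and the part of these markers in the results was not tested. In such bulk samples, fewer cells of a type and less RNA per cell cannot be told apart.

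One feature of the libraries bears on the ATF4 branch and is given before the results. Control library C held the lowest level of its group for 16 of the 20 ATF4-branch genes tested, and METTL3 shRNA library C did so for 12 of the 20. For the 16 ER chaperones and folding enzymes, METTL3 shRNA library C was again the lowest of its group for 10, whereas control library C was the highest of its group for 10. How often these libraries were lowest or highest over all genes was not counted, so these numbers are not shown to be particular to these genes. Values obtained without each of these libraries are given below for TRIB3, ATF3, ASNS and DDIT4.

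**Figure D1:**
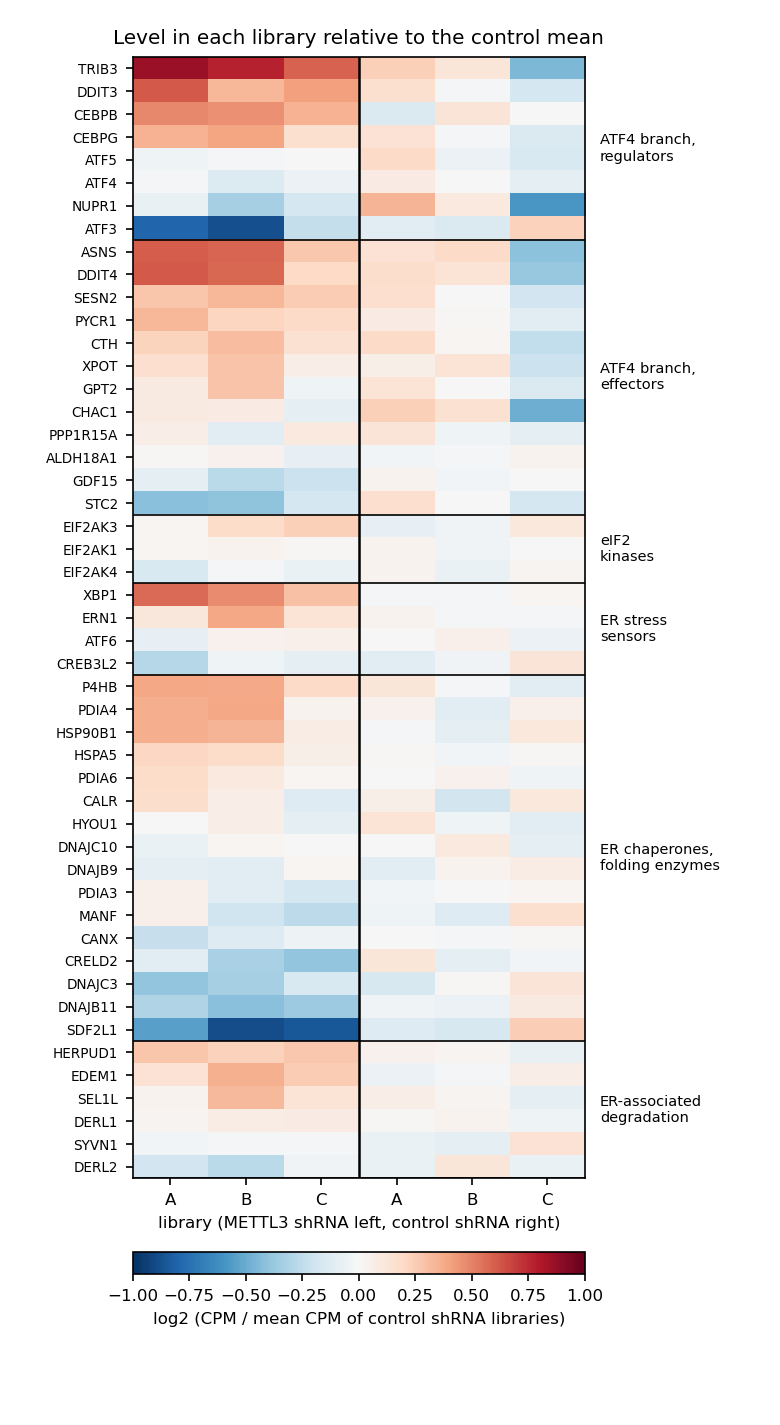
Level of each of the 49 tested genes (rows, by role) in each of the 6 libraries (columns, METTL3 shRNA left, control shRNA right), as log2 of CPM over the mean CPM of the control libraries. Rows of the ATF4 branch such as TRIB3, ASNS and DDIT4 are palest in METTL3 shRNA library C within their group and bluest in control library C.

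Of the 50 genes, 49 passed the filter on low counts, and FGF21, a secreted hormone induced by ATF4 in liver, had 0 counts in each METTL3 shRNA library and 1, 3 and 1 in control libraries A, B and C. Among the 49, 14 rose and 5 fell in METTL3 shRNA cells and 30 did not pass the test (quasi-likelihood test of edgeR, p adjusted by Benjamini-Hochberg over all 18740 genes tested and called under 0.05). Changed genes made up 38.8% of the 49 against 33.5% of all genes tested, so the share that changed was near the background. By direction, 28.6% of the 49 rose against 16.5% of all genes, and 10.2% fell against 16.9%. The median log2 fold change was 0.028 for the 49 genes and −0.0030 for all genes. The groups of libraries did not overlap for 20 of the 49 genes, or 40.8%, against 47.4% of all genes, with 14 genes higher in every METTL3 shRNA library (23.4% of all genes) and 6 lower (23.9% of all genes). Changes were modest, from 0.25 to 0.75 in absolute log2 fold change among the 19 changed genes, and 0 of them reached a doubling or a halving.

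The counts depended on the scaling and on single libraries, for these genes and for all genes alike. With scaling by library size alone, which moved the median of all genes to −0.11, 7 of the 49 genes rose (14.3%, against 10.6% of all genes) and 9 fell (18.4%, against 25.2% of all genes). The numbers of genes that rose and fell were 6 and 4 without METTL3 shRNA library A, 5 and 3 without METTL3 shRNA library B, 7 and 3 without control library B, and 7 and 5 without control library C. In the same fits the share of all genes that changed was 25.3% without METTL3 shRNA library A, 21.0% without METTL3 shRNA library B, 24.3% without control B and 24.4% without control C. Of the 49 genes, 12.2% rose without METTL3 shRNA library A, against 12.2% of all genes, and 10.2% without METTL3 shRNA library B, against 10.7%. Without control B 14.3% rose against 12.1%, and without control C 14.3% against 12.3%. The larger share of rises among the 49 genes was thus absent or small in these fits. That larger share remained without METTL3 shRNA library C (30.6% against 17.1%) and without control A (24.5% against 14%). Exons of 9 of the 19 changed genes (CEBPB, DDIT3, ASNS, PYCR1, DDIT4, HSP90B1, P4HB, DNAJB11 and EDEM1) overlap those of other annotated genes, and ASNS and XBP1 have annotated pseudogenes, so their counts are less certain.

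**Figure D2:**
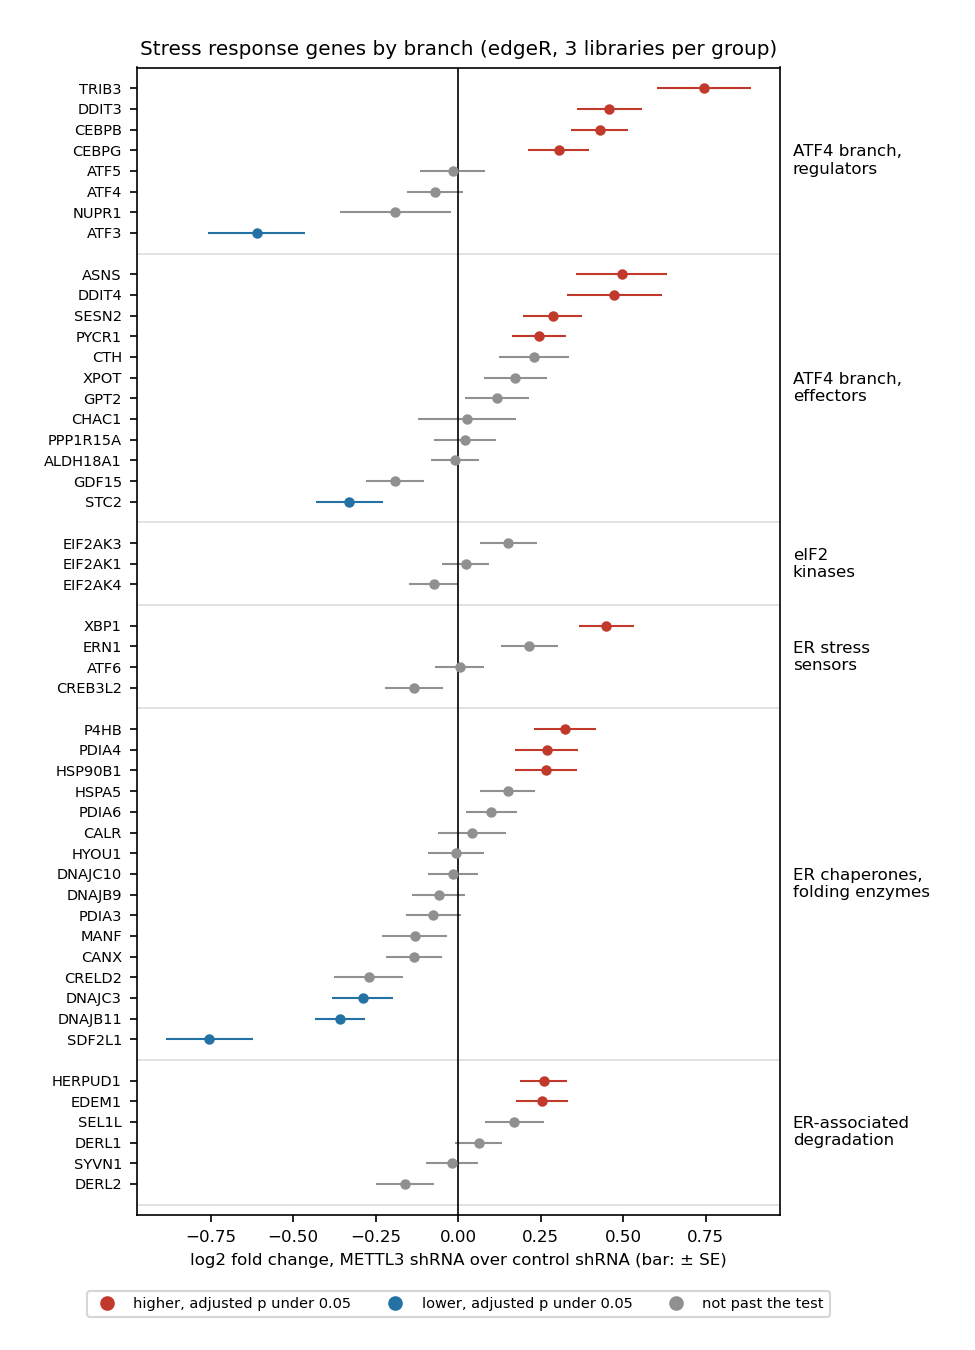
Log2 fold change (METTL3 shRNA over control shRNA, horizontal axis, bars ± SE) of the 49 tested genes, grouped by role, with genes past the edgeR adjusted p of 0.05 in red (higher) or blue (lower). In the 2 ATF4-branch groups 8 of 20 points are red, and chaperones are split between 3 red and 3 blue points. Over all genes tested 16.5% rose and 16.9% fell. In the fits without METTL3 shRNA library A or B, 3 regulators and 0 effectors rose, against 12.2% and 10.7% of all genes.

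In the ATF4 branch, several transcription factors and TRIB3 rose while ATF4 mRNA did not pass the test. Of the 8 regulators, 4 rose (TRIB3, DDIT3, CEBPB and CEBPG), 1 fell (ATF3) and 3 did not pass (ATF4, ATF5 and NUPR1), with a median log2 fold change of 0.14. Over all genes tested 16.5% rose and 16.9% fell. With library size scaling, 3 regulators rose and 1 fell, against 10.6% and 25.2% of all genes.

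ATF4 mRNA stood at 605, 554 and 585 CPM in METTL3 shRNA libraries A, B and C, against 648, 612 and 572 CPM in control libraries A, B and C. The groups overlapped, and the difference was within its error (log2 fold change −0.070, SE 0.085, adjusted p of edgeR = 0.556). ATF4 was also among the most abundant of the genes per transcript length, at 493 ± 21.5 FPKM (fragments per kilobase and library size, as deposited) in METTL3 shRNA cells and 558 ± 18.0 FPKM in control cells (SD, n = 3 each). The gene (chromosome 22, 39519695 to 39522685, plus strand, GRCh38) has 4 named pseudogenes, which can share its reads.

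TRIB3 encodes a pseudokinase that ATF4 and CHOP induce and that in turn restrains ATF4. Its level was 377, 351 and 310.4 CPM in METTL3 shRNA libraries A, B and C, against 243, 225 and 151 CPM in control libraries A, B and C. The lowest METTL3 shRNA library was above the highest control library, and TRIB3 rose by 67.6% (log2 fold change 0.74, SE 0.14, adjusted p of edgeR = 0.00178). This was the largest rise among the 49 genes. The log2 fold change was 0.56 without control library C, the lowest, and 0.82 without METTL3 shRNA library C.

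DDIT3 encodes CHOP, a C/EBP-family transcription factor linked to cell death under lasting ER stress. Its values were 156, 129 and 136 CPM in METTL3 shRNA libraries A, B and C, against 114, 101 and 90.5 CPM in control libraries A, B and C. All METTL3 shRNA libraries were above all control libraries (log2 fold change 0.46, SE 0.099, adjusted p of edgeR = 0.00361). DDIT3 (chromosome 12, 57516588 to 57521737, minus strand) shares exon bases with MARS1 on the opposite strand, which had a log2 fold change of −0.25.

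CEBPB and CEBPG are C/EBP factors that bind DNA together with ATF4. CEBPB was measured at 252, 248 and 229 CPM in METTL3 shRNA libraries A, B and C, against 163, 197 and 181 CPM in control libraries A, B and C, with no overlap (log2 fold change 0.43, SE 0.087, adjusted p of edgeR = 0.00251). Unlike most genes of this branch, its lowest control library was A. CEBPG, less abundant, rose as well (48.2 ± 4.01 CPM in METTL3 shRNA cells and 39.0 ± 3.91 CPM in control cells, SD, n = 3 each; log2 fold change 0.30, SE 0.091, adjusted p of edgeR = 0.0212), a call lost without METTL3 shRNA library A or B or control B or C (adjusted p of edgeR, 0.0671 to 0.092).

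ATF3 went the other way. ATF3 is an immediate-early repressor and activator of the ATF/CREB family that ATF4 induces. Its values were 73.1, 68.9 and 107 CPM in METTL3 shRNA libraries A, B and C, against 117, 115 and 149 CPM in control libraries A, B and C. Library C was the highest of both groups, and the groups did not overlap (log2 fold change −0.61, SE 0.15, adjusted p of edgeR = 0.00691), a fall of 34.5%. The log2 fold change ran from −0.48 without control library C to −0.83 without METTL3 shRNA library C, past the test in all 6 fits without a single library. ATF5, a relative of ATF4 under the same translational control, had a value of −0.016 (SE 0.099), and NUPR1, a stress-induced chromatin protein, had −0.19 with the largest SE of the genes not past the test (0.17), as its control libraries ranged from 26.5 CPM in C to 50.1 CPM in A. Without control library C, NUPR1 passed the test at −0.41 (edgeR adjusted p = 0.0102).

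**Figure D3:**
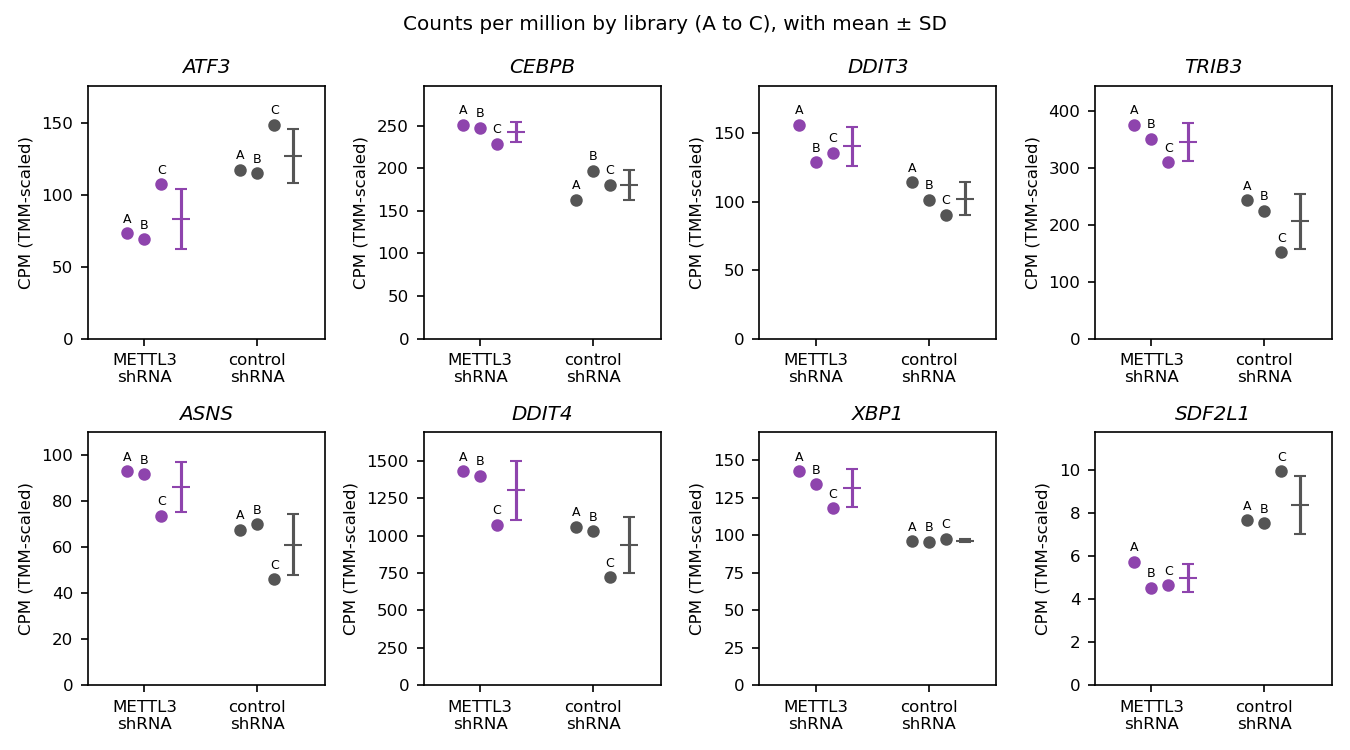
TMM-scaled CPM (vertical axis from 0) in METTL3 shRNA libraries (left, purple) and control libraries (right, grey), lettered A to C, with mean ± SD beside the points, for the 8 genes past the test with an absolute log2 fold change of at least 0.4. The groups do not overlap in any panel, and in the panels of TRIB3, ASNS and DDIT4 library C is the lowest point of each group.

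The DNA element that ATF4 and C/EBP factors bind together was looked for in promoters, to show which of these genes hold it and in which direction they moved. Promoter windows from RefSeq (GRCh38.p14), from 250 bases before to 50 after the start, were present for 44 of the 50 genes. The letters TGATGNAA, in either orientation, were in a window of 7 of these 44 genes (15.9%), against 4.46% of the 27305 genes with a window, some of which have several windows. Because the members were chosen by role, the larger share depends on that choice and is a description only. The 7 sites are shown with 8 bases on each side, read along the gene's strand, with the matching letters in capitals.
ASNS, chr7:97872461-97872484, minus strand: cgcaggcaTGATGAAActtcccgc
CEBPG, chr19:33374063-33374086, plus strand: gcggcgtcTGATGCAAcctgccgg
HERPUD1, chr16:56931958-56931981, plus strand: gcggcgggTTGCATCAgcccgtgc
ATF3, chr1:212565208-212565231, plus strand: ggtcaggaTGATGGAAggctgtca
CHAC1, chr15:40953254-40953277, plus strand: ccctgccgTTGCATCActcctgcc
CREB3L2, chr7:137932957-137932980, minus strand: ctgggagcTGATGAAAaatgcaga
FGF21, chr19:48755462-48755485, plus strand: caccaggaTTGCATCAgggaggag
Of the 7 genes, ASNS, CEBPG and HERPUD1 rose, ATF3 fell, CHAC1 and CREB3L2 did not pass and FGF21 was not tested. By comparison, 28.6% of the 49 members tested rose and 10.2% fell, and 16.5% and 16.9% of all genes. The sites of CEBPG, CHAC1, HERPUD1 and FGF21 hold the same 8 letters, on one strand or the other, and a match in letters is a description and not a bound site.

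Among the 13 effectors of the ATF4 branch, 12 were tested, of which 4 rose (ASNS, DDIT4, SESN2 and PYCR1), 1 fell (STC2) and 7 did not pass, with a median log2 fold change of 0.15. Over all genes tested 16.5% rose and 16.9% fell. The number of changed effectors was 0 without METTL3 shRNA library A or B, where 25.3% and 21% of all genes changed. It was 2 without control B or C, where 24.3% and 24.4% of all genes changed. With library size scaling 2 effectors rose and 2 fell, against 10.6% and 25.2% of all genes.

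ASNS, asparagine synthetase, is a classical target of ATF4 in amino acid shortage. Its values were 93.0, 91.6 and 73.6 CPM in METTL3 shRNA libraries A, B and C, against 67.5, 69.8 and 45.9 CPM in control libraries A, B and C. The groups did not overlap, although library C was low in both (log2 fold change 0.50, SE 0.14, adjusted p of edgeR = 0.0145). The log2 fold change was 0.32 without control library C and 0.60 without METTL3 shRNA library C. Without METTL3 shRNA A or B the call was lost, with an edgeR adjusted p of 0.0676 to 0.0685.

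DDIT4 (REDD1), an inhibitor of mTORC1 that hypoxia-inducible factors also induce, had 1434, 1401 and 1075 CPM in METTL3 shRNA libraries A, B and C, against 1062, 1032 and 723 CPM in control libraries A, B and C. METTL3 shRNA library C, at 1075 CPM, stood just above control library A, at 1062 CPM (log2 fold change 0.47, SE 0.14, adjusted p of edgeR = 0.0231). Without METTL3 shRNA library A or B or control C the call was lost (adjusted p of edgeR, 0.0787 to 0.0978). The log2 fold change was 0.31 without control library C and 0.60 without METTL3 shRNA library C.

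SESN2, a leucine-binding inhibitor of mTORC1 signalling, rose by 21.9% (log2 fold change 0.29, SE 0.090, adjusted p of edgeR = 0.026), and PYCR1, the mitochondrial enzyme of the last step of proline synthesis, rose by 18.6% (log2 fold change 0.25, SE 0.082, adjusted p of edgeR = 0.0349). Both calls were lost without METTL3 shRNA library A or B or control B or C, with edgeR adjusted p of 0.0557 to 0.123 for SESN2 and of 0.0696 to 0.141 for PYCR1. STC2, a secreted glycoprotein, fell to 269 ± 25.8 CPM in METTL3 shRNA cells, against 338 ± 40.1 CPM in control cells (SD, n = 3 each; log2 fold change −0.33, SE 0.10, adjusted p of edgeR = 0.0238), with METTL3 shRNA library C and control library C almost level at 299 CPM each. Its call was lost without METTL3 shRNA library A or B or control A or B (adjusted p of edgeR, 0.0668 to 0.109).

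The effectors that did not pass covered glutathione breakdown, amino acid metabolism and secreted signals. CTH, the enzyme that makes cysteine from cystathionine, had a log2 fold change of 0.23 (SE 0.11; past the test without control library A, at 0.34), the tRNA exporter XPOT 0.17, the transaminase GPT2 0.12, the glutathione-degrading enzyme CHAC1 0.028, the proline synthesis enzyme ALDH18A1 −0.0085 and PPP1R15A (GADD34), which directs phosphatase to eIF2, 0.021. GDF15, a stress hormone, was the most abundant gene of the set per transcript length, at 1382 ± 72.4 FPKM in METTL3 shRNA cells and 1707 ± 37.6 FPKM in control cells (SD, n = 3 each). Its CPM lay lower in every METTL3 shRNA library, with 1417, 1252 and 1304 CPM in METTL3 shRNA libraries A, B and C, against 1548, 1484 and 1505 CPM in control libraries A, B and C, without passing the test (log2 fold change −0.19, SE 0.088, adjusted p of edgeR = 0.109). GDF15 did pass, as lower, in 5 alternatives, namely library size scaling (−0.30), DESeq2 (−0.19), both filtered fits of log2 FPKM (−0.31) and the replicate block (−0.19).

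None of the 3 eIF2 kinases passed edgeR (0 of 3, also at an unadjusted p under 0.05 and with DESeq2 and limma-voom). EIF2AK3, the ER-resident kinase PERK, stood at 20.5, 23.1 and 23.9 CPM in METTL3 shRNA libraries A, B and C, against 19.2, 19.8 and 21.8 CPM in control libraries A, B and C, with overlap of the groups (log2 fold change 0.15, SE 0.086, adjusted p of edgeR = 0.193). EIF2AK1, the kinase regulated by heme and mitochondrial stress, had a value of 0.023 (SE 0.072) and EIF2AK4, which senses uncharged tRNA, −0.073 (SE 0.074). On the deposited FPKM values EIF2AK1 was lower, at 52.6 ± 4.04 FPKM in METTL3 shRNA cells and 64.6 ± 2.31 FPKM in control cells (SD, n = 3 each), so its direction depends on the table used.

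Among the factors on which these kinases act, EIF2B5, EIF2B3 and EIF2B4 of eIF2B were lower under all 16 alternatives. In a list of 19 genes of eIF2, eIF2B and their regulators, 1 rose and 6 fell, with a median log2 fold change of −0.14. Of all genes tested, 16.5% rose and 16.9% fell. With library size scaling 1 rose and 10 fell, against 10.6% and 25.2% of all genes. Without METTL3 shRNA library B or control library B 3 fell, against 10.2% and 12.2% of all genes in those fits. EIF2B5, the catalytic subunit of the exchange factor eIF2B, averaged 57.5 ± 1.57 CPM in METTL3 shRNA cells and 79.2 ± 3.75 CPM in control cells (SD, n = 3 each; log2 fold change −0.46, SE 0.073, adjusted p of edgeR = 0.000552). The eIF2B subunits EIF2B3 (−0.47, SE 0.094) and EIF2B4 (−0.35, SE 0.074) fell as well. The remaining subunits EIF2B1 (−0.26) and EIF2B2 (−0.23), named after their values were seen, also passed with all libraries. EIF2B1 lost the call without METTL3 shRNA library B (−0.23) or control B (−0.24), and EIF2B2 without METTL3 shRNA library B (−0.16) or any single control library (−0.25 to −0.21). Of the eIF2 trimer, EIF2S3, the gamma subunit that binds GTP and initiator tRNA, rose (0.32, SE 0.075). EIF2S1, the alpha subunit that the kinases phosphorylate, fell (−0.27, SE 0.082), a call lost without METTL3 shRNA library A (−0.24) or B (−0.22) or control B (−0.25) or C (−0.25), and the beta subunit EIF2S2 stood at −0.010, both also named after their values were seen.

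Among the ER stress sensors and their transcription factors, XBP1 rose and the other three did not pass. XBP1 stood at 143, 134 and 118 CPM in METTL3 shRNA libraries A, B and C, against 95.8, 95.6 and 97.8 CPM in control libraries A, B and C. The control libraries were nearly level and all METTL3 shRNA libraries lay above them (log2 fold change 0.45, SE 0.082, adjusted p of edgeR = 0.00137). The rise of 36.6% passed the test under all 16 alternatives, with a log2 fold change from 0.30 to 0.53. Counts per gene hold spliced and unspliced XBP1 together.

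ERN1, the sensor whose nuclease splices XBP1, had 24.2, 29.2 and 24.6 CPM in METTL3 shRNA libraries A, B and C, against 22.9, 22.1 and 22.1 CPM in control libraries A, B and C. The groups did not overlap, yet the test did not pass (log2 fold change 0.22, SE 0.086, adjusted p of edgeR = 0.068), except without METTL3 shRNA library C (log2 fold change 0.26). ATF6, the sensor that is cleaved in the Golgi to a transcription factor, was level in counts, with 67.7, 73.7 and 74.2 CPM in METTL3 shRNA libraries A, B and C, against 72.0, 74.0 and 68.9 CPM in control libraries A, B and C (log2 fold change 0.0048, SE 0.074, adjusted p of edgeR = 0.966). CREB3L2, a related membrane-bound factor of secretory cells, had a value of −0.13 (SE 0.088).

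The element through which ATF6 and XBP1 act was present in XBP1 and in several chaperone promoters. The letters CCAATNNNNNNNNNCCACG (ER stress element), in either orientation, were in a window of 7 of the 44 genes (15.9%), against 0.0916% of all genes with a window. The members were chosen by their role in these pathways, so this larger share depends on that choice and is a description only. The 300 bases around the start of XBP1, a gene that rose and holds the element, are shown along the gene's strand with the element in capitals, its first letter 52 bases before the start.
XBP1, chr22:28800520-28800819, minus strand: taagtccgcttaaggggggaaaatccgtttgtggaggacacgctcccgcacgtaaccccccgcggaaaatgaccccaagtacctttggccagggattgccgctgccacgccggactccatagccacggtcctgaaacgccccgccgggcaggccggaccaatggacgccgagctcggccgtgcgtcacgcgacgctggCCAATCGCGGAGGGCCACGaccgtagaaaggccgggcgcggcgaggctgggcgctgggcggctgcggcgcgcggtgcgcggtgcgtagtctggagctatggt
The other members with the element are shown with 8 bases on each side, because they include the main chaperones of the ER. HSP90B1 has 2 copies, in opposite orientations.
HSPA5, chr9:125241383-125241417, minus strand: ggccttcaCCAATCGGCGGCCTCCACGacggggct
HSP90B1, chr12:103930208-103930242, plus strand: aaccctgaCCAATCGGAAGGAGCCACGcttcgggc
HSP90B1, chr12:103930313-103930347, plus strand: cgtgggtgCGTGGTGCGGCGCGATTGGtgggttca
PDIA6, chr2:10812845-10812879, minus strand: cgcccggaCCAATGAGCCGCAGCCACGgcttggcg
CALR, chr19:12938376-12938410, plus strand: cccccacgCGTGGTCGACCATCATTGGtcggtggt
CANX, chr5:179698770-179698804, plus strand: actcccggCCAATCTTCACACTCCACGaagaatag
CRELD2, chr22:49918546-49918580, plus strand: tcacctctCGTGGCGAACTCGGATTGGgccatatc
Of the 7 genes with the element, XBP1 and HSP90B1 rose, 0 fell and 5 did not pass, with values from −0.27 for CRELD2 to 0.15 for HSPA5 among those 5. HSP90B1 lost the call in 8 of the 16 alternatives. By comparison, 28.6% of the 49 members tested rose and 10.2% fell, and 16.5% and 16.9% of all genes.

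The ER chaperones and folding enzymes did not move together. Of 16, 3 rose (P4HB, PDIA4 and HSP90B1), 3 fell (SDF2L1, DNAJB11 and DNAJC3) and 10 did not pass, with a median log2 fold change of −0.036. Over all genes tested 16.5% rose and 16.9% fell, so both numbers were near the background. With library size scaling 1 rose and 5 fell, against 10.6% and 25.2% of all genes. The number that changed was 3 without METTL3 shRNA library A or control C, 2 without METTL3 shRNA library B or control B, and 4 without control A. In these fits without a library, 21% to 28.1% of all genes changed.

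HSPA5 encodes BiP, the central Hsp70 of the ER and the usual readout of the unfolded protein response. Its values were 989.8, 973 and 896 CPM in METTL3 shRNA libraries A, B and C, against 868, 841 and 868 CPM in control libraries A, B and C. Every METTL3 shRNA library was higher, but the difference of 11.0% did not pass (log2 fold change 0.15, SE 0.084, adjusted p of edgeR = 0.187).

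P4HB, a disulfide isomerase that is also a subunit of prolyl 4-hydroxylase, rose to 853 ± 63.7 CPM in METTL3 shRNA cells, against 681 ± 55.6 CPM in control cells (SD, n = 3 each; log2 fold change 0.33, SE 0.094, adjusted p of edgeR = 0.018). The isomerase PDIA4 (log2 fold change 0.27, SE 0.096, adjusted p of edgeR = 0.0444) and HSP90B1, the Hsp90 of the ER (log2 fold change 0.27, SE 0.094, adjusted p of edgeR = 0.0442), rose close to the threshold, and for both METTL3 shRNA library C lay within the control range. These calls were lost without METTL3 shRNA library A or B or control library B, and also without control library C for P4HB, A for HSP90B1, and A or C for PDIA4. The edgeR adjusted p in those fits was 0.0522 to 0.0739 for P4HB, 0.0647 to 0.177 for PDIA4 and 0.104 to 0.174 for HSP90B1.

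SDF2L1 showed the largest fall of the 49 genes. It encodes an ER-resident protein that acts with the cofactor DNAJB11 in the BiP cycle. Its values were 5.75, 4.54 and 4.66 CPM in METTL3 shRNA libraries A, B and C, against 7.68, 7.53 and 9.97 CPM in control libraries A, B and C. The groups did not overlap, and SDF2L1 was 40.7% lower in METTL3 shRNA cells (log2 fold change −0.75, SE 0.13, adjusted p of edgeR = 0.00106). The call held under all 16 alternatives, with a log2 fold change from −0.87 to −0.61. DNAJB11 itself had 38.9, 35.8 and 37.2 CPM in METTL3 shRNA libraries A, B and C, against 46.6, 46.0 and 50.8 CPM in control libraries A, B and C (log2 fold change −0.36, SE 0.076, adjusted p of edgeR = 0.00321), again without overlap and past the test under all 16 alternatives. DNAJC3 (p58IPK), another cofactor of BiP, fell to 30.5 ± 2.75 CPM in METTL3 shRNA cells, against 37.3 ± 3.69 CPM in control cells (SD, n = 3 each; log2 fold change −0.29, SE 0.092, adjusted p of edgeR = 0.0284), a call lost without METTL3 shRNA library A or B or control B or C (adjusted p of edgeR, 0.0813 to 0.117).

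A second form of the ER stress element, ATTGGNCCACG in either orientation, was in a window of 3 of the 44 genes (6.82%), against 0.0696% of all genes with a window. This share, too, depends on the choice of members by role. The sites of these 3 genes are shown with 8 bases on each side because they differ in direction, HERPUD1 having risen, SDF2L1 fallen and HYOU1 not passed. HYOU1 has 2 copies.
SDF2L1, chr22:21642106-21642132, plus strand: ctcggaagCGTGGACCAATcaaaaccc
HERPUD1, chr16:56932017-56932043, plus strand: ggacgccgATTGGGCCACGttgggaga
HYOU1, chr11:119057372-119057398, minus strand: ccccgtgaCGTGGTCCAATcccaggcc
HYOU1, chr11:119057266-119057292, minus strand: gcctgggaCGTGGTCCAATgagtacgc
The SDF2L1 and HYOU1 copies lie in the reverse orientation and that of HERPUD1 in the forward one. The HERPUD1 site does not overlap its TGATGNAA site.

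The 9 other chaperones and foldases lay between −0.27 and 0.10. The calreticulin CALR (0.043) and calnexin CANX (−0.13), lectins that hold new glycoproteins, and their partner isomerase PDIA3 (−0.074) did not pass. The isomerase PDIA6 (0.10), the BiP cofactors DNAJB9 (−0.058) and DNAJC10 (−0.015) and the large Hsp70 relative HYOU1 (−0.0073) did not pass either. MANF (−0.13) and CRELD2 (−0.27, edgeR adjusted p = 0.0591) are secreted on ER stress, and CRELD2 was lower in every METTL3 shRNA library. CRELD2 passed, as lower, in 6 alternatives, namely library size scaling, all fits of log2 FPKM, the replicate block and the fit without METTL3 shRNA library A (−0.36). CANX was also lower in every METTL3 shRNA library, and passed with library size scaling.

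In ER-associated degradation, the route that returns misfolded proteins to the cytosol, 2 of 6 genes rose, 0 fell and 4 did not pass, with a median log2 fold change of 0.12. Over all genes tested 16.5% rose and 16.9% fell. HERPUD1, a membrane protein that organises the degradation complex, rose to 69.8 ± 1.30 CPM in METTL3 shRNA cells, against 58.3 ± 2.49 CPM in control cells (SD, n = 3 each; log2 fold change 0.26, SE 0.072, adjusted p of edgeR = 0.0142). EDEM1, which directs glycoproteins to degradation, rose to 55.8 ± 3.99 CPM, against 46.7 ± 2.11 CPM in control cells (SD, n = 3 each; log2 fold change 0.26, SE 0.079, adjusted p of edgeR = 0.024). The number that changed was 1 without METTL3 shRNA library B or any single control library, where 21% to 28.1% of all genes changed. Neither HERPUD1 nor EDEM1 passed with library size scaling, where 0 of the 6 rose and 1 fell, against 10.6% and 25.2% of all genes. The call was lost without control library C for HERPUD1 (edgeR adjusted p = 0.0671) and without METTL3 shRNA library B or control A or B for EDEM1 (adjusted p of edgeR, 0.0798 to 0.1). The ligase complex genes SEL1L (0.17) and SYVN1 (−0.018) and the derlins DERL1 (0.063) and DERL2 (−0.16) did not pass. DERL2 did pass, as lower, in 3 alternatives, namely library size scaling and both filtered fits of log2 FPKM.

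The wider pathway was read from lists that, like the members, were chosen with earlier results of these data known. Of 28 further ATF4 targets tested, 5 rose and 2 fell (median 0.10), where 16.5% of all genes rose and 16.9% fell. With library size scaling 2 rose and 5 fell, where 10.6% of all genes rose and 25.2% fell. EIF4EBP1, a repressor of cap-dependent translation, rose (0.75, SE 0.15), as did the C/EBP factor CEBPD (0.41, SE 0.095) and the amino acid transporter SLC38A2 (0.34, SE 0.10), while the threonyl- and methionyl-tRNA synthetases TARS1 (−0.32, SE 0.082) and MARS1 (−0.25, SE 0.074) fell. The numbers that rose and fell were 2 and 1 without METTL3 shRNA library B, 4 and 0 without control library B, and 2 and 3 without control library C. Of all genes, 10.7% to 12.3% rose and 10.2% to 12.2% fell in those fits. Without control library C more of the targets fell than rose, but their median log2 fold change stayed positive at 0.069. SLC38A2 lost the call without METTL3 shRNA library B (0.29) or control C (0.24), TARS1 without control B (−0.29), and MARS1, which shares exon bases with DDIT3, without METTL3 shRNA library B (−0.25), control A (−0.22) or control B (−0.27).

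More genes of protein entry into the ER fell than rose. Of 22 genes of translocation and signal peptide processing, 1 rose and 7 fell (median −0.17), where 16.5% of all genes rose and 16.9% fell. Under library size scaling 1 rose and 15 fell, where 25.2% of all genes fell. The genes that fell numbered 3 without METTL3 shRNA library B, control B or control C, where 10.2%, 12.2% and 12.1% of all genes fell. Without control A 4 fell, where 14.1% of all genes fell. In these fits the number that fell was near the background. The signal peptidase subunit SEC11C (−0.76, SE 0.10), the receptor subunit SRPRB (−0.61, SE 0.090) and the signal recognition particle protein SRP19 (−0.54, SE 0.10) fell, and the signal peptidase subunit SPCS3 rose (0.37, SE 0.089).

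Further folding factors and degradation factors divided between both directions. Of all genes tested, 16.5% rose and 16.9% fell, with 10.6% and 25.2% under library size scaling. Fits without a single library gave 10.7% to 17.1% of all genes higher and 10.2% to 17.4% lower. Of 30 further folding factors, 8 rose and 2 fell (median 0.043; 5 and 6 under library size scaling, 5 and 2 without METTL3 shRNA library A or B or control C, and 5 and 0 without control B), with the oxidase ERO1A (0.57, SE 0.090), the isomerase PDIA5 (0.67, SE 0.11) and CNPY3 (0.62, SE 0.10) higher and the thioredoxin-like TMX3 (−0.31, SE 0.084) and the glycoprotein folding sensor UGGT1 (−0.25, SE 0.075) lower. TMX3 lost the call without control B (−0.25) and UGGT1 without METTL3 shRNA library A (−0.20) or any single control library (−0.27 to −0.23). Of 33 further genes of degradation and stress signalling, 6 rose and 9 fell (median −0.0072; 5 and 5 without METTL3 shRNA library A, and 5 and 4 without METTL3 shRNA library B). Among them the mannosidase EDEM3 fell (−0.74, SE 0.11), as did the ubiquitin-conjugating enzyme UBE2G2 (−0.41, SE 0.079) and RTCB, the ligase that joins spliced XBP1 mRNA (−0.37, SE 0.080). The ligase MARCHF6 (0.34, SE 0.081), the ER stress regulator QRICH1 (0.33, SE 0.076) and the derlin DERL3 (1.85, SE 0.39) rose, DERL3 at 0.399 ± 0.128 CPM in METTL3 shRNA cells and 0.110 ± 0.0507 CPM in control cells (SD, n = 3 each).

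**Figure D4:**
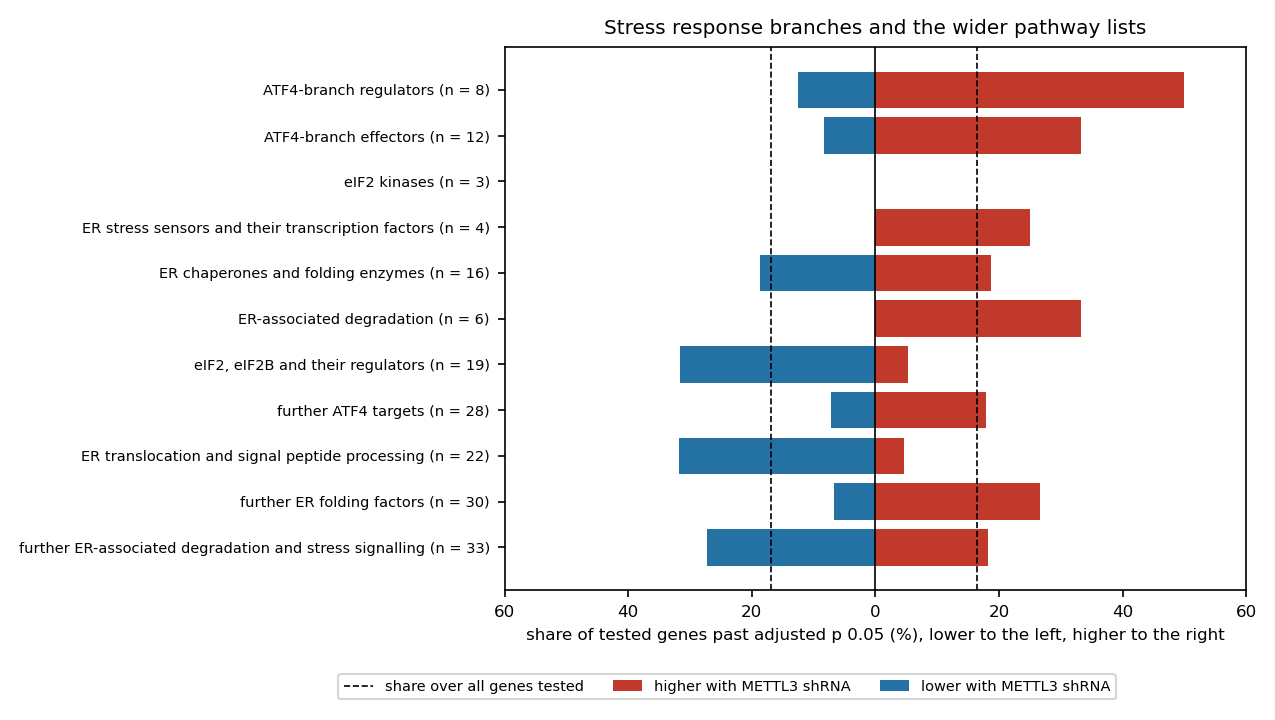
Share of tested genes (%) past the edgeR adjusted p of 0.05 in each group of members (upper 6 bars) and each wider list (lower 5 bars), higher with METTL3 shRNA to the right and lower to the left, with dashed lines at the shares over all genes tested (16.5% higher and 16.9% lower). All bars pass the right line except those of the kinases, of eIF2 and eIF2B and of ER translocation, and the left line is passed by eIF2 and eIF2B, ER translocation, the chaperones and the further degradation and signalling genes. The sensors pass the right line through 1 of 4 genes. Chaperones (3 of 16 on each side) pass both lines only just. Further ATF4 targets (5 of 28) and further degradation and signalling genes (6 of 33) pass the right line only just.

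Of the 19 changed members, 7 kept the call in each of the 6 fits without a single library (TRIB3, DDIT3, CEBPB, ATF3, XBP1, DNAJB11 and SDF2L1) and 12 lost it in at least 1. Of the 7, TRIB3, DDIT3, CEBPB and ATF3 lost the call on log2(FPKM + 1) without a filter, while XBP1, DNAJB11 and SDF2L1 kept it under all 16 alternatives. None of the 19 changed sign under the 16 alternatives (0 reversals).

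**Figure D5:**
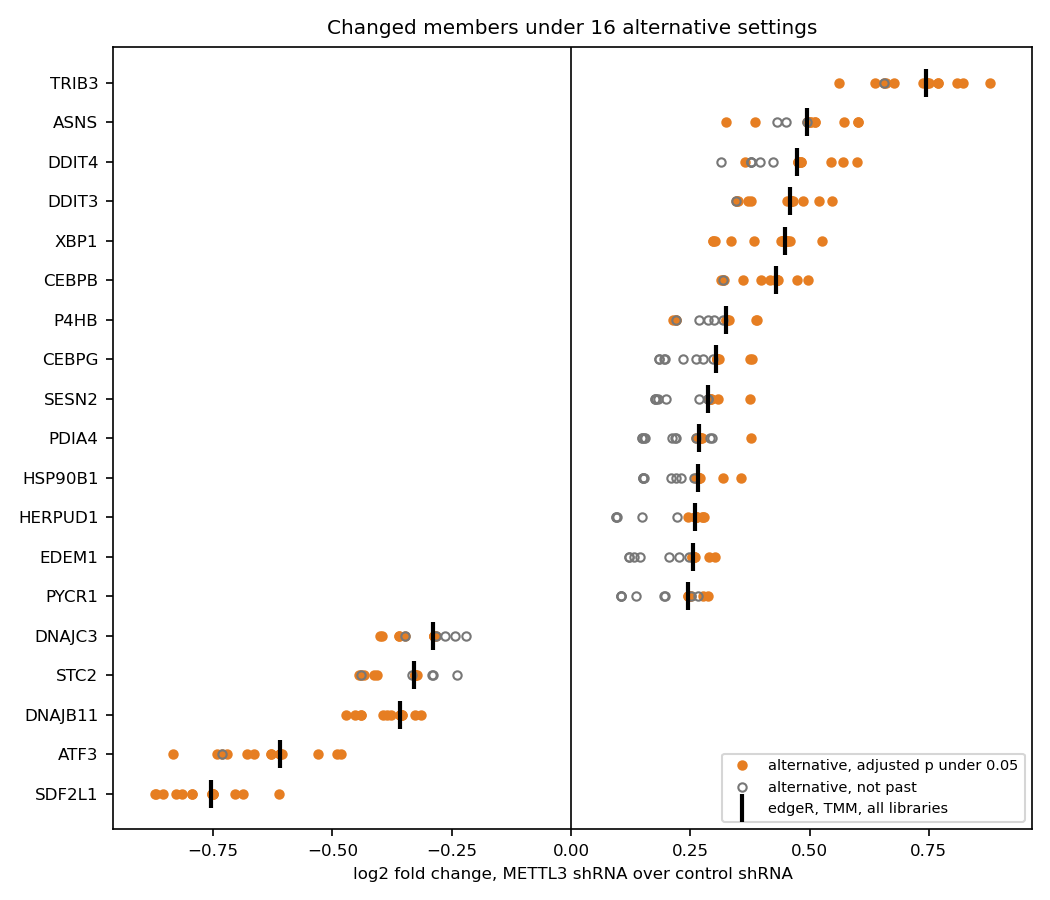
Log2 fold change (horizontal axis) of the 19 changed genes with edgeR, TMM scaling and all libraries (black mark) and under 16 alternatives (filled where the adjusted p was under 0.05, open where not). All points of a gene lie on one side of 0, and XBP1, DNAJB11 and SDF2L1 have filled points only.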

How the data were processed

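Per the labels' protocols, total RNA behind the 6 libraries of 786-O cells was depleted of ribosomal RNA and read as pairs on a DNBSEQ instrument. The authors deposited whole-number counts per Ensembl gene and FPKM values, and STAR 2.7.10b, Salmon and the build GRCh38 are named, without roles, in the submitters' processing notes. For strand setting and annotation release, the sources used here give nothing. There were 0 value columns of other samples.

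Counts were tested with edgeR 4.0.16 in R 4.3.3 (filterByExpr, TMM, quasi-likelihood test, Benjamini-Hochberg adjustment over 18740 genes at 0.05), with standard errors from the F statistic. DESeq2 1.42.0, limma 3.58.1 on voom weights or on log2(FPKM + 1) and log2(FPKM + 0.1), other scalings and filters, a block for the column letter and fits without each library were alternatives. Within each group, counts of libraries compared in pairs gave a chi-square of 16.4 to 62.2 for each degree of freedom, beyond counting error. In simulated counts for the 18740 genes, of which 18483 were tested, 200 genes were altered, 45 to 59 per fold. The share of altered genes recovered was 19.1% for a fold of 1.25, 63.3% for 1.5, 66.7% for 2 and 96.6% for 4, and 9.29% of its calls were unchanged genes. In the data 6270 genes were called, so the adjustment cut p at another level. These shares are therefore not the recovery of the test reported here.

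The members and the wider lists were chosen with earlier results of these data known. All 50 members are named, with values in every library for the main sensors and regulators and for members past the test with an absolute log2 fold change of at least 0.4. Of each wider list, up to 3 genes per direction with the smallest p are named. Gene positions and overlaps came from GENCODE 29 on GRCh38, in which all 50 members were found.
Alternatives for the wider lists and their named genes were added after seeing the data.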

Additional observations from a re-analysis of the deposited data

How the results depend on the processing

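The counts of all genes and members changed little with DESeq2-type size factors, DESeq2, limma-voom and other filters on counts. Over the 16 alternatives and the 49 members, 635 values kept direction and side of the threshold, 82 lost the call, 19 gained it in the same direction and 48 changed sign, 5 of them past the test (EIF2AK1 and ATF6 on FPKM), all of the 48 among the 30 members not past the test. With scaling by library size alone, 1985 genes rose and 4727 fell, 7 members rose, 9 fell and 1 gene of ER-associated degradation changed. On log2(FPKM + 1) and log2(FPKM + 0.1), 1588 and 1568 genes rose and 3730 and 3710 fell, 6 members rose and 10 fell in both, and 3 effectors of the ATF4 branch, 1 kinase, 2 sensors and 1 degradation gene changed. On log2(FPKM + 1) without the filter, 3271 genes changed, of which 1027 rose and 2244 fell, 1 member rose, and 0 regulators, 0 effectors, 1 kinase, 3 chaperones and 0 degradation genes changed. The cause was not tested.

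Without single libraries, the number of genes changed ran from 4012 to 6589, with 2053 to 3265 higher and 1959 to 3324 lower. The members that rose ran from 5 to 15 and those that fell from 3 to 5. By group, 4 to 5 regulators, 0 to 5 effectors, 0 kinases, 1 to 2 sensors, 2 to 6 chaperones and 1 to 2 degradation genes changed.

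Sign changes with library size scaling were CHAC1 (−0.078), PPP1R15A (−0.087), EIF2AK1 (−0.088), ATF6 (−0.10), CALR (−0.071), PDIA6 (−0.011) and DERL1 (−0.047). On log2(FPKM + 1), with or without the filter, they were CHAC1 (−0.051), PPP1R15A (−0.087), EIF2AK1 (−0.29), ATF6 (−0.28), CALR (−0.068), PDIA6 (−0.011) and DERL1 (−0.11). On log2(FPKM + 0.1) they were CHAC1 (−0.053), PPP1R15A (−0.087), EIF2AK1 (−0.30), ATF6 (−0.29), CALR (−0.068), PDIA6 (−0.011) and DERL1 (−0.11). Fits without 1 library ran from −0.17 to 0.16 for CHAC1, −0.025 to 0.088 for PPP1R15A, −0.042 to 0.13 for CALR, −0.062 to 0.034 for DNAJC10, −0.024 to 0.042 for ATF6, −0.032 to 0.031 for ALDH18A1, −0.058 to 0.066 for HYOU1, −0.089 to 0.089 for ATF5, −0.41 to 0.015 for NUPR1 and −0.061 to 0.057 for SYVN1.

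With the column letter as a replicate block, 6985 genes changed, and 15 members rose and 7 fell. No label pairs the libraries by letter. Deviations of libraries with the same letter correlated at −0.018 for A, −0.049 for B and 0.169 for C. Only C correlated best with its own letter, and its value was the largest of all pairs across the groups. Whether the libraries lettered C share a batch was not tested. FGF21 was left out by the filter on low counts.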

Other observations

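EIF2AK1 and ATF6 differed between the deposited tables. In counts neither differed beyond its error, whereas on log2(FPKM + 1) EIF2AK1 stood at −0.29 (limma adjusted p = 0.0142) and ATF6 at −0.28 (limma adjusted p = 0.0281). EIF2AK1 had 48.3, 56.3 and 53.2 FPKM in METTL3 shRNA libraries A, B and C, against 66.2, 65.6 and 62.0 FPKM in control libraries A, B and C, so that its FPKM did not overlap between the groups. ATF6 had 14.8, 17.3 and 18.2 FPKM in METTL3 shRNA libraries A, B and C, against 20.1, 20.7 and 20.6 FPKM in control libraries A, B and C, again without overlap. The same table placed the median of all genes at −0.094, so the gap exceeds the shift common to all genes. The transcript lengths behind the FPKM values are not known here, and the cause was not tested.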
